A study of Mus musculus with 24 samples.

Results

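The uninjured retina of the sham mouse was examined at both timepoints of a blast injury study in mice. The members are 12 of the 24 retinas sequenced, 6 sham retinas collected 8 days and 6 collected 5 weeks after the procedure, chosen by their labels alone, and the genes are the 14455 that both expression tables list. The other 12 retinas came from mice exposed to a blast wave (blast-mediated traumatic brain injury, bTBI), 6 at each time, and they enter only where a set difference is measured again in them. All mice were male C57BL/6J animals, kept in 12 hours of light and 12 hours of darkness and 13 to 17 weeks old at the procedure. Sham mice received the same anaesthesia and handling, without the blast wave. Each library came from 1 retina of 1 mouse, from the eye on the side that faced the blast tank, and was made from poly(A) RNA.

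The sham sets differ in more than time. RNA was isolated with a different kit in each (RNeasy Plus Mini at 8 days, RNeasy Mini at 5 weeks), the interval from the procedure to collection, and with it the age at collection, differed, and the authors filtered and scaled each table separately. Nothing in the sources used here says that the libraries of the 2 sets were made or sequenced together. Time after the procedure, age, RNA kit, table and any batch of libraries therefore cannot be told apart, and "difference between the sets" below means all of them at once. The estimated depth was 14301989 to 24102502 reads per retina at 8 days and 16847387 to 23787494 at 5 weeks, and the shared genes held 99.56% or more of the values of every sham retina.

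The retina is a layered tissue in which rods, the photoreceptors of dim light, far outnumber all other cells in the mouse. Rods and cones turn light into a change of membrane voltage through an opsin, a G protein (transducin) and a phosphodiesterase that removes cyclic GMP. Bipolar cells pass the signal to retinal ganglion cells (RGCs), whose axons form the optic nerve, while horizontal and amacrine cells adjust it on the way. Müller glia span all layers, recycle glutamate and buffer potassium. The pigment epithelium, a sheet behind the photoreceptors that renews the visual chromophore, and the lens lie outside the neural retina.

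Photoreceptor genes lead the transcriptome of every sham retina. Promoters of 3 photoreceptor genes are shown, all taken from those that hold the motif below. The window is the 120 bases before the start site in RefSeq, on GRCm38.p6, written 5′ to 3′ on the strand of the gene. Capitals mark GGATTA, the reverse complement of TAATCC, the core letters known as the binding motif of the photoreceptor factor CRX and of its relative OTX2. Sag encodes the rod arrestin that ends the light response, Guca1a a calcium sensor that controls guanylate cyclase, and Aipl1 a chaperone of the photoreceptor phosphodiesterase.

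Sag, chr1:87803560-87803679, plus strand: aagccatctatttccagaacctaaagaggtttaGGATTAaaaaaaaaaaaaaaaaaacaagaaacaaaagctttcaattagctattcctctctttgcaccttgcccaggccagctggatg
Guca1a, chr17:47400607-47400726, minus strand: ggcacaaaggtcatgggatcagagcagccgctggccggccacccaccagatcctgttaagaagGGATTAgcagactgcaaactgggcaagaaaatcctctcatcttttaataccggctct
Aipl1, chr11:72037510-72037629, minus strand: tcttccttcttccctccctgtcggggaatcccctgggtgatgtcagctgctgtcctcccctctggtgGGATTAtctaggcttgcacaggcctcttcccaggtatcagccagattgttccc

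TAATCC was searched on both strands in the 250 bases before each start site in the table of RefSeq promoters. It was present in 4 of 10 rod genes and 8 of 15 genes of both photoreceptor kinds that the table holds, and in 1949 of all 27025 genes (7.21%). Of the other lists, 2 of 8 cone genes, 4 of 16 bipolar genes, 2 of 9 Müller genes, 2 of 17 amacrine genes and 0 of 15 RGC genes held it. Prph2 and Rom1, photoreceptor genes among the highest in level, had no match in these windows. These are matches of letters in a window and do not show that a factor is bound there.

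Levels are given as CPM, the reads of a gene per 1000000 reads of the shared genes in that retina, so that the scaling of the tables cancels. Where genes are compared with each other, the level is given as TPM, which also divides by exon length. Values of a set are listed as lowest, median and highest of its 6 retinas.

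Rods dominated the baseline. The 15 rod genes made up 7, 8.57 and 9.24% of TPM at 8 days and 7.68, 8.16 and 8.19% at 5 weeks, and with the cone genes and the genes of both photoreceptor kinds (46 in all) the share was 12.6 ± 0.977% (SD, n = 6) and 12.3 ± 0.243%. The sets overlapped in both shares. The sample labels name the cell type as retinal ganglion cell, but the 27 RGC genes made up 0.366 ± 0.024% of TPM at 8 days and 0.236 ± 0.0111% at 5 weeks, so the libraries are described here as whole retina.

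**Figure D1:**
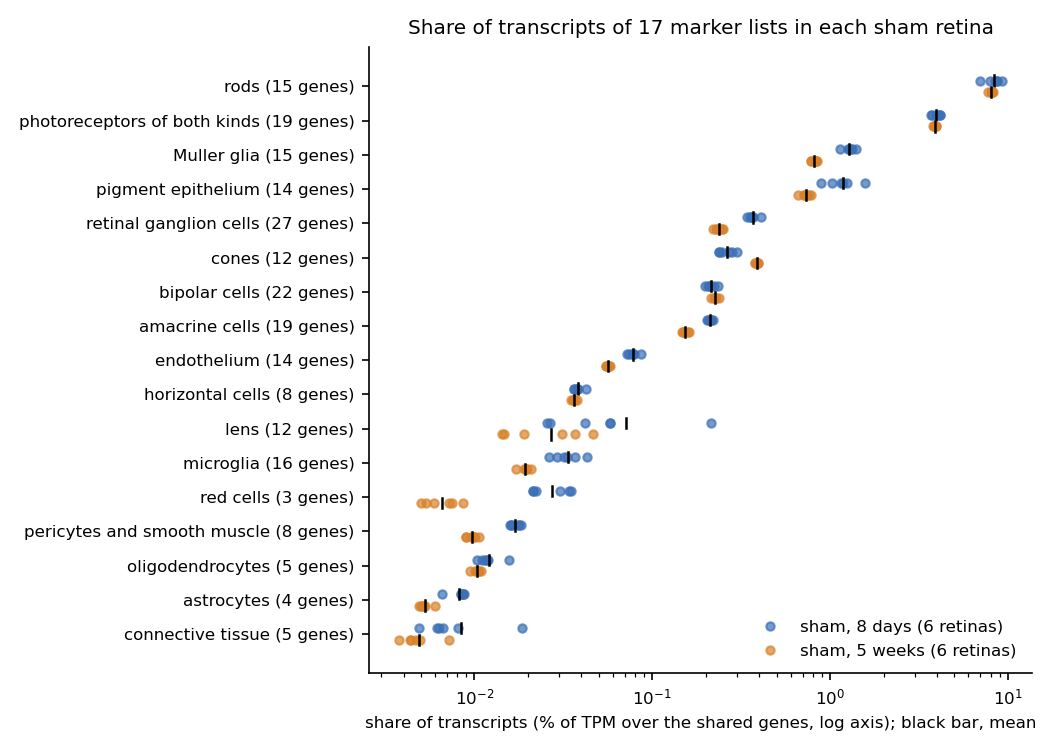
Share of transcripts of 17 marker lists in each sham retina, as percent of TPM over the shared genes on a log axis (points, 6 retinas per set; black bars, set means). Rod genes hold about 8% in both sets. The RGC, Müller, amacrine, astrocyte and microglia shares of all 5-week retinas lie below those of all 8-day retinas. So do the endothelium, pericyte, pigment epithelium and red cell shares. The cone shares lie above, mostly through Arr3.

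Among the genes of highest level was Gnat1 (chr9:107674474-107679712), the alpha subunit of rod transducin, with 28142 ± 2807 TPM at 8 days and 23008 ± 547 TPM at 5 weeks (SD, n = 6). Prph2 and Rom1, a pair of partner proteins that shape the photoreceptor disc rim, followed at 8408 ± 661 and 7686 ± 203 TPM at 8 days and 7959 ± 173 and 6228 ± 90.2 TPM at 5 weeks. Gnb1 and Pde6g, the beta subunit of rod transducin and the inhibitory subunit of the rod phosphodiesterase, also stood among the first 10 genes.

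Genes from outside the photoreceptors were among the first 10 as well. Ttr, which encodes the thyroxine and retinol carrier transthyretin and is a marker of the pigment epithelium, reached 7527 ± 1476 TPM at 8 days and 4449 ± 271 at 5 weeks. Ptgds, a prostaglandin D synthase, reached 6606 ± 1467 and 3574 ± 236 TPM. The first 10 also hold Gm23935 and Gm24270, gene models with only 57 exon bases each, for which a level per kb is unreliable. Such short models stay in the TPM totals used here. Without genes under 200 bases, a setting that was not planned, the mean rod share was 8.66% at 8 days and 8.20% at 5 weeks. With them it was 8.33 and 8.08%. The first 10 genes took 11% of TPM, the first 100 took 27.0% and the first 1000 took 55.1%. The order of genes was much alike in the sets (84 of the first 100 genes by TPM were shared, a Spearman rank correlation of 0.914 across genes, which are not independent replicates).

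After the photoreceptor lists, the largest shares belonged to Müller glia and to the pigment epithelium. The 15 Müller genes held 1.28 ± 0.0847% of TPM at 8 days, led by Glul, the glutamine synthetase that detoxifies glutamate (4451 ± 184 TPM), and Apoe, a lipid carrier (2079.9 ± 349.7 TPM). The 14 measured pigment epithelium genes held 1.17 ± 0.23% at 8 days and 0.729 ± 0.0414% at 5 weeks. Ttr alone made up most of that share in both sets. The inner neurons took far less, with 0.214 ± 0.0127% for bipolar, 0.211 ± 0.00614% for amacrine and 0.0381 ± 0.00219% for horizontal genes at 8 days. The endothelial list (0.0777 ± 0.00495%) lay between the amacrine and horizontal lists, and those of microglia (0.0334 ± 0.00598%) and red cells (0.0273 ± 0.00642%) lay below the horizontal list. The shares depend on which genes a list holds and are not cell fractions, and in bulk RNA fewer cells of a type and less RNA per cell cannot be told apart.

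Some textbook markers are not among the shared genes. The microglial markers Aif1 and Fcrls and the myelin genes Mog, Mag, Mobp, Cldn11, Opalin and Ugt8a are missing. So are the astrocyte factor Pax2, the lens genes Mip and Gja3, the smooth muscle gene Tagln and the pericyte gene Higd1b. The collagen and matrix genes Col3a1 and Lum are missing too. Aif1 and Fcrls are each listed at 1 time only, as are 1 of Tagln and Higd1b and 1 of Col3a1 and Lum. The oligodendrocyte list rests on 5 of 11 genes.

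Sham retinas of a set resembled each other closely. Pairs of libraries had a Pearson r of log2(CPM + 1) across genes of 0.988 to 0.995 at 8 days, 0.993 to 0.996 at 5 weeks and 0.914 to 0.945 between the sets. The first principal component, which separated the sets, held 86.7% of the variance. Among genes with a mean log2(CPM + 1) of at least 3, the median SD over 6 retinas was 0.116 at 8 days and 0.0806 at 5 weeks, and 73.5% of all genes had the larger SD at 8 days. Only 45 of 10895 such genes at 8 days and 19 of 11346 at 5 weeks had an SD of 0.5 or more. Of the 10541 genes that passed this level in both sets, 24 and 17 had such an SD and 10 had it in both (41.7% and 58.8% of the respective genes).

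The genes that varied most between retinas of 1 set included lens, pigment and connective tissue genes at both times, and at 5 weeks also immediate early genes. Cryaa, a lens crystallin, ran from 2.17 through 47.5 to 421 CPM at 8 days and from 0 through 15.6 to 45.1 CPM at 5 weeks. Crybb2, another crystallin, ran from 0.56 to 166 CPM and from 0 to 34.9 CPM. The highest 8-day value of both lay in replicate 5 and the lowest in replicate 1. The mean log2 level of the 12 lens genes had an SD of 1.15 at 8 days and 0.94 at 5 weeks, against 0.07 and 0.03 for the rod genes and 0.10 and 0.06 for the RGC genes.

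Replicate 4 of the 8-day set stood out in another group of genes. Gpx3, a secreted glutathione peroxidase, was at 13.9, 31.2 and 362 CPM at 8 days and 6.12, 10.1 and 50.0 CPM at 5 weeks. Penk, the enkephalin precursor, was at 11.4, 19.5 and 168 CPM and at 5.32, 6.43 and 18.8 CPM. Fbln1, a matrix glycoprotein, was at 4.90, 14.8 and 116 CPM and at 0.929, 2.59 and 17.4 CPM. In each of these genes the highest 8-day value was replicate 4 and the highest 5-week value replicate 2. The same pair was highest in Serpina3n, a protease inhibitor of reactive glia (113 and 15.9 CPM), in Optc, a vitreous and ciliary body glycoprotein (54.9 and 12.1 CPM), and in Pmel, a fibril protein of pigment granules (123 and 43.6 CPM). The mean level of the 5 connective tissue genes lay 1.37 above the set mean on the log2 scale in the 8-day replicate 4 and 0.97 above it in the 5-week replicate 2, and the pigment epithelium list lay 0.51 and 0.39 above.

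**Figure D2:**
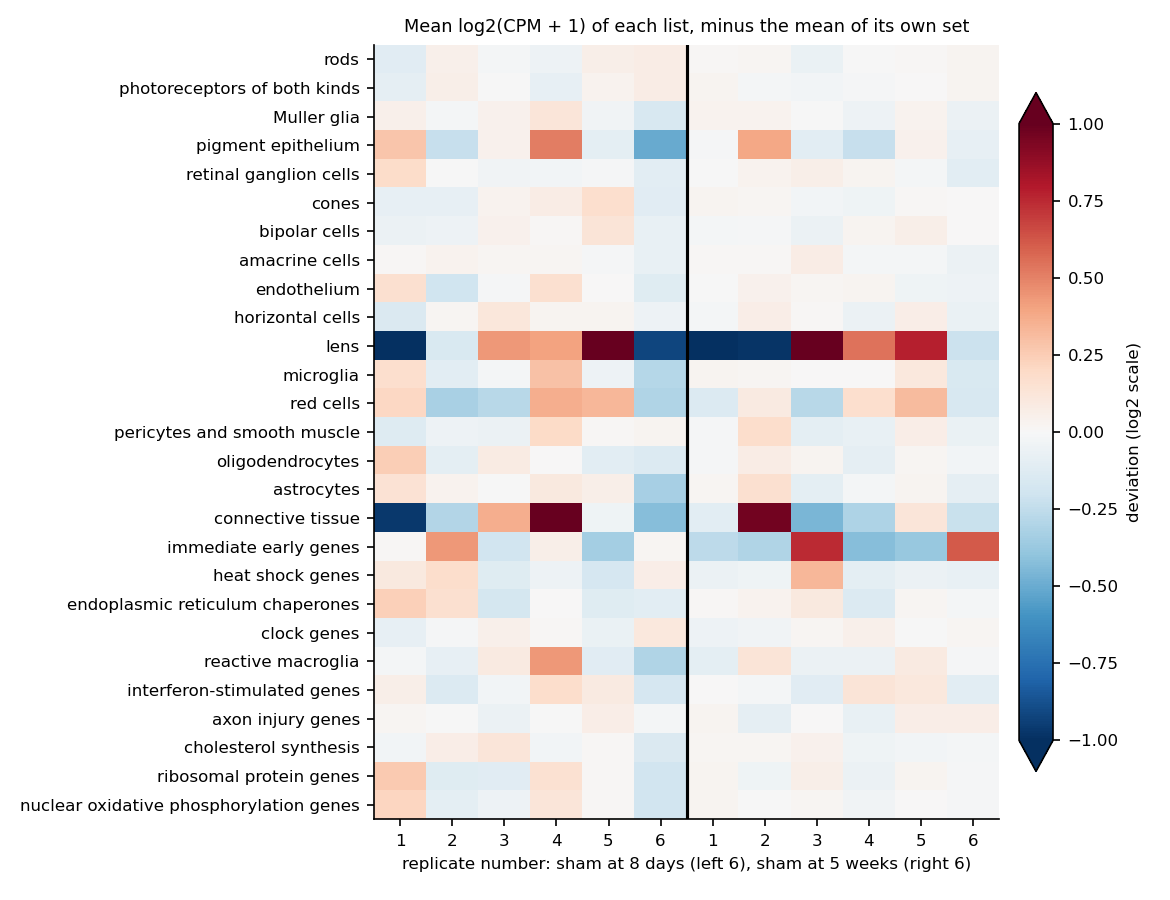
Mean log2(CPM + 1) of each list in each sham retina minus the mean of its own set, by replicate number (left 6, 8 days; right 6, 5 weeks; colour scale cut at -1 and 1). Lens and connective tissue genes vary most, 8-day replicate 4 is high in pigment, connective and reactive macroglia genes, and 5-week replicates 3 and 6 are high in immediate early genes.

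Activity-dependent genes set apart a pair of 5-week retinas. Egr1, a transcription factor that nerve cells make within minutes of stimulation, was at 7.26, 16.7 and 131 CPM at 5 weeks and 11.4, 15.6 and 38.4 CPM at 8 days. Fos, a partner in the AP-1 factor, was at 10, 15.2 and 59.9 CPM and at 11.5, 19.7 and 37.4 CPM, and Nr4a1, an orphan nuclear receptor, at 17.7, 23.0 and 76.2 CPM and at 12.2, 20.1 and 25.3 CPM. Replicates 3 and 6 held the highest 5-week values of all of these, with Egr1 at 81.0 and 131 CPM and Fos at 59.9 and 53.0 CPM. The list lay 0.75 and 0.62 above the set mean in them on the log2 scale. Of the 12 immediate early genes measured, Fosb and Btg2 were higher at 5 weeks, 0 were lower and 10 did not pass the test, with a median log2 difference of 0.28. Over all genes 38.3% were called higher at 5 weeks and 28.1% lower, so this list held few calls. The call of Fosb was lost without replicate 3, 4 or 5 of the 8-day set and without replicate 2, 3 or 6 of the 5-week set (adjusted p = 0.00536 to 0.00843). Median-of-ratios and TMM scaling lost it too (limma adjusted p = 0.00712 and 0.00914).

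A few genes varied without belonging to a fixed list. Eps8l1, an actin regulator, was at 1.18, 16.0 and 35.6 CPM at 8 days and 4.61, 25.2 and 57.1 CPM at 5 weeks. Slc15a2, a peptide transporter, was even at 8 days (17.9, 24.4 and 29.6 CPM) and uneven at 5 weeks (19.8, 57.8 and 88.6 CPM). Its call between the sets (log2 difference 0.96 ± 0.26, limma adjusted p = 0.00306) was lost without replicate 2 or 4 of the 8-day set (adjusted p = 0.00869 and 0.00547) and without replicate 1, 3 or 4 of the 5-week set (0.01, 0.00983 and 0.00954). Median-of-ratios scaling (0.00559), TMM scaling (0.00653) and a prior without the trend (0.0099) lost the call too.

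The sets differed over most of the transcriptome. Of 14455 genes, 9594 passed an adjusted p of 0.005 in limma (66.4%), 5532 of them higher at 5 weeks (38.3%) and 4062 lower (28.1%). That balance depends on the scaling, since TMM gave 4818 higher and 5033 lower and median-of-ratios scaling gave 4946 and 4849. Changes above 2-fold were lopsided, with 1594 genes higher (11%) and 160 lower (1.11%). The log2 differences ran from -2.16 to 6.57 around a median of 0.06. With so many genes called, a called gene or a list with many called members is not in itself particular, and each count below is to be read against 38.3% of genes called higher and 28.1% called lower. The lists are described by counts and medians, with no test of a list.

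Rod genes moved little. Of 15, Samd7 was higher, Gnat1, Pde6g, Sag and Gnb1 were lower and 10 did not pass, with a median of -0.05 (all genes 0.06). The call of Gnb1 (-0.21 ± 0.06, adjusted p = 0.00233) was lost without replicate 2, 3 or 5 of the 8-day set (adjusted p = 0.00604, 0.00679 and 0.00707) and without replicate 3 or 4 of the 5-week set (0.00747 and 0.0059). Values scaled as deposited (0.00662) and the replicate number as a block (0.00854) lost it too. Gnat1 fell between sets without overlap, from 19468, 22697 and 24296 CPM to 15906, 16369 and 16949 CPM (log2 difference -0.45 ± 0.07, adjusted p = 7.26e-06). Sag was at 5201, 5829.5 and 6167 CPM at 8 days and 4634, 4889 and 4976 CPM at 5 weeks (-0.25 ± 0.05, adjusted p = 0.000144). Samd7, a repressor of cone genes in rods, rose from 104, 117 and 146 CPM to 153, 161 and 179 CPM (0.46 ± 0.07, adjusted p = 5.9e-06). The rod factors Nrl and Nr2e3 differed by -0.07 and 0.19 and did not pass, although Nr2e3 passed without the 5-week replicate 3 (adjusted p = 0.00219).

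The genes of both photoreceptor kinds also moved both ways, with 4 higher, 7 lower and 8 not called of 19 (median -0.10). Crx, the homeobox factor that turns on photoreceptor genes, was at 806, 991 and 1076 CPM at 8 days and 1117, 1195 and 1226 CPM at 5 weeks (0.31 ± 0.06, adjusted p = 6.58e-05). Rcvrn, the calcium sensor recoverin, went the other way, from 1159, 1195 and 1288 CPM to 841, 855 and 914 CPM (-0.48 ± 0.04, adjusted p = 1.4e-09). Guca1a was lower by 0.36 on the log2 scale, and Aipl1 missed the threshold (0.13 ± 0.04, adjusted p = 0.0054).

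Rpgrip1 stood far from the rest of its list. Its protein anchors the ciliary protein RPGR in the connecting cilium of photoreceptors. It was at 99.8, 114 and 149 CPM at 8 days and 839, 921 and 955 CPM at 5 weeks (chr14:52110704-52163546, 2.93 ± 0.08, adjusted p = 1.63e-16). The next largest rise in the list was 0.35, in Tulp1, a protein needed to move other proteins to the outer segment.

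Cone genes split as well, 5 higher, 4 lower and 3 not called of 12 (median -0.11), counts near those over all genes (38.3% and 28.1%). Their share of TPM was nevertheless higher at 5 weeks in every retina (0.237, 0.258 and 0.301% against 0.377, 0.388 and 0.394%). Most of that rise lay in Arr3, cone arrestin, which differed most in this list, with 134 ± 17.3 TPM at 8 days and 975 ± 44.9 at 5 weeks. In CPM it was at 70.2, 85.9 and 93.3 and then at 503, 546 and 573 (chrX:100605497-100618493, 2.69 ± 0.06, adjusted p = 4.12e-17). Gnb3, the beta subunit of cone transducin, was at 208, 271 and 347 CPM and at 443, 507 and 541 CPM (0.90 ± 0.10, adjusted p = 1.87e-07). The opsins did not follow. The green-sensitive Opn1mw was lower (179, 229 and 243 CPM to 138, 144 and 159.7 CPM, -0.59 ± 0.06, adjusted p = 9.69e-08), and the short-wave Opn1sw overlapped between sets (431, 459 and 530.1 CPM against 421, 429 and 457 CPM, -0.11 ± 0.05, adjusted p = 0.0517). Opn1sw was called lower with median-of-ratios scaling (adjusted p = 0.00234) and with TMM scaling (0.00127).

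**Figure D3:**
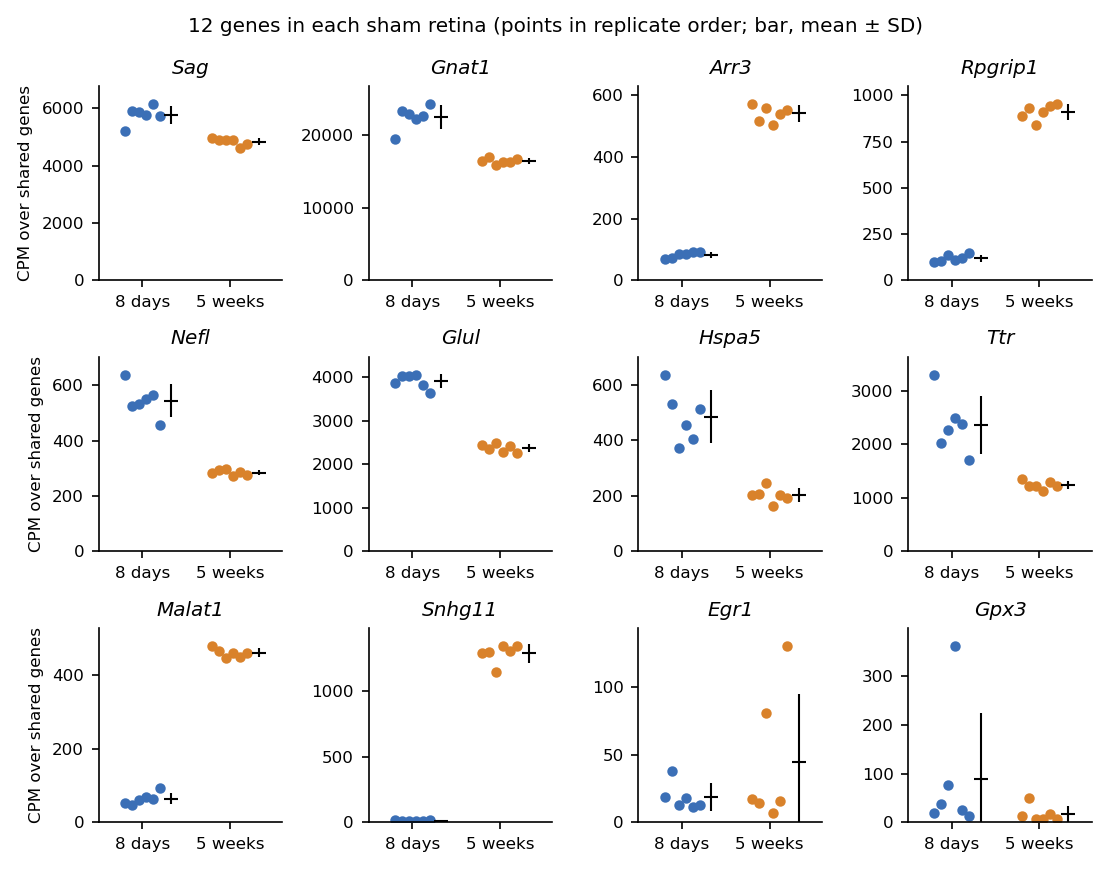
CPM over the shared genes of 12 genes in each sham retina (blue, 8 days; orange, 5 weeks; points in replicate order; bars, mean ± SD of 6 retinas; every axis starts at 0). Sag and Gnat1 are lower at 5 weeks, Arr3, Rpgrip1, Malat1 and Snhg11 do not overlap and are higher at 5 weeks, and single retinas carry the spread of Egr1 and Gpx3.

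Among the bipolar genes 6 were higher, 10 lower and 6 not called of 22 (median -0.19), against 38.3% higher and 28.1% lower over all genes. The higher ones include members of the signalling chain of ON bipolar cells. Grm6, the glutamate receptor of their dendrites, was at 79.2, 82.0 and 94.6 CPM and at 174, 181 and 187 CPM (1.09 ± 0.05, adjusted p = 1.79e-13). Rgs11, which speeds the end of the G protein signal behind that receptor, was at 24.7, 25.9 and 30.5 CPM and at 128, 135 and 143 CPM (2.31 ± 0.05, adjusted p = 4.32e-17). Gpr179, which holds such regulators at the dendrite tip, rose by 0.57, while Nyx, a partner in the same complex, was lower by 0.48 on the log2 scale. Scgn, the calcium-binding secretagogin of cone bipolar cells, was lower (111, 123 and 131 CPM to 64.2, 67.7 and 77.3 CPM, -0.82 ± 0.05, adjusted p = 2.8e-11). Prkca, the kinase used to label rod bipolar cells, overlapped between the sets (297, 431 and 512 CPM against 303, 318 and 336 CPM, -0.39 ± 0.09, adjusted p = 0.000941) and lost its call without 8-day replicates 4 and 5 (adjusted p = 0.00555) or without 5-week replicates 3 and 6 (adjusted p = 0.007).

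Amacrine genes were lower in 10, higher in 3 and not called in 6 of 19 (median -0.21), against 28.1% lower and 38.3% higher over all genes. Calb2, the calcium-binding calretinin, was at 503, 539.6 and 642 CPM and at 257, 271 and 296 CPM (-1.01 ± 0.05, adjusted p = 4.15e-12). Gad1, which makes the transmitter GABA, was at 356, 364 and 392 CPM and at 257, 275 and 294 CPM (-0.42 ± 0.04, adjusted p = 2.08e-08), and Nos1, which makes nitric oxide, fell by 1.08. Against them stood the transcription factors Pax6 (0.56), Tfap2a (0.31) and Tfap2c (0.32), all higher at 5 weeks. Of 8 horizontal cell genes 4 were lower, Calb1, Onecut2, Gja10 and Prox1, and 0 were higher (median -0.26). The call of Gja10 was lost without the 8-day replicate 3 or the 5-week replicate 1 or 6 (adjusted p = 0.00516 to 0.00542).

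RGC genes were lower at 5 weeks almost throughout. Of 27, 23 were lower, Jam2 alone was higher (0.29), and 3 did not pass, among them Rbpms, an RNA-binding protein used to count RGCs (-0.11). The median was -0.62, where 28.1% of all genes were called lower. Nefl, the light neurofilament, was at 458, 541 and 638 CPM at 8 days and 273, 285 and 298 CPM at 5 weeks (-0.93 ± 0.06, adjusted p = 4.48e-11). Sncg, gamma-synuclein, was at 120.4, 135 and 173 CPM and at 63.0, 69.9 and 76.9 CPM (-0.97 ± 0.07, adjusted p = 7.76e-10). The sets did not overlap in either. The POU factors of RGCs fell by 0.58 (Pou4f1), 0.29 (Pou4f2) and 0.77 (Pou4f3), and Opn4, the pigment of light-sensing ganglion cells, fell by 0.77. Nefl lies within the annotated span of Nefm, so part of their reads may be shared. These are uninjured retinas, and several lists of non-neuronal cells, described next, had medians as low.

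Glial genes were lower too. Of 15 Müller genes, 14 were lower and Hes1 did not pass, with a median of -0.73 (28.1% of all genes were lower). Glul was at 3640.2, 3937 and 4051 CPM and at 2249.8, 2387 and 2475 CPM (-0.72 ± 0.04, adjusted p = 3.95e-11). Kcnj10, the potassium channel of Müller endfeet, was at 145, 153 and 165 CPM and at 68.6, 73.0 and 84.5 CPM (-1.04 ± 0.05, adjusted p = 1.94e-12). The 4 measured astrocyte genes were all lower (median -0.73). Gfap, the intermediate filament of astrocytes and of stressed Müller glia, was at 15, 23.3 and 27.9 CPM and at 7.64, 10.5 and 11.4 CPM (-1.10 ± 0.12, adjusted p = 1.75e-07), a call that was lost, like that of S100b, when all 24 retinas shared the estimate of the spread (adjusted p = 0.00719 and 0.0346). Of 16 microglial genes 13 were lower and 0 higher (median -0.79), with Csf1r, the receptor on which microglia depend, at 58.9, 72.3 and 102 CPM and at 34.5, 37.1 and 40.2 CPM.

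Vessel, pigment and blood genes shared that direction. Of 14 endothelial genes 12 were lower (median -0.59) and of 8 pericyte and smooth muscle genes all 8 (median -0.82), against 28.1% of all genes. Flt1, a receptor of vascular growth factor, was at 131, 136 and 143 CPM and at 64.3, 73.3 and 76.0 CPM (-0.93 ± 0.05, adjusted p = 1.79e-12). Rgs5, a pericyte marker, was at 91.9, 103 and 120.2 CPM and at 40.6, 48.4 and 56.4 CPM (-1.11 ± 0.08, adjusted p = 1.62e-10). Of 14 pigment epithelium genes 12 were lower (median -0.71), and Mlana (-1.21, adjusted p = 0.00638) and Lrat (-0.45) did not pass. Mlana passed with median-of-ratios scaling (adjusted p = 0.00433) and with TMM scaling (0.00399). The list's highest gene, Ttr, was at 1718, 2324 and 3305 CPM and at 1122, 1229.8 and 1355 CPM (-0.90 ± 0.11, adjusted p = 3.28e-07).

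The 3 measured red cell genes, all haemoglobin chains, gave the lowest median of all lists (-1.86). Hbb-bs was at 22.1, 32.2 and 42.4 CPM at 8 days and 4.95, 7.13 and 9.18 CPM at 5 weeks (-2.05 ± 0.16, adjusted p = 1.25e-09). Hba-a1 (-1.86) and Hba-a2 (-1.76) are near-identical copies whose reads could be split between them. Lens genes had a median of -1.0, but only Cryab and Lim2 of 12 passed, and Lim2 lost its call without any 1 of 9 of the 12 retinas (adjusted p = 0.00547 to 0.012). Cryab lost its call with all 24 retinas in the fit (adjusted p = 0.0304). Cryab was at 48.3 and 44.4 CPM in the 5-week replicates 1 and 2, where Cryaa was at 0 and 0.731 CPM. Both were highest in the 8-day replicate 5 (202 and 421 CPM). How far the call of Cryab reflects lens tissue was not tested. Cryaa differed by -2.16 ± 1.00 (adjusted p = 0.0579), and its sets overlapped widely.

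**Figure D4:**
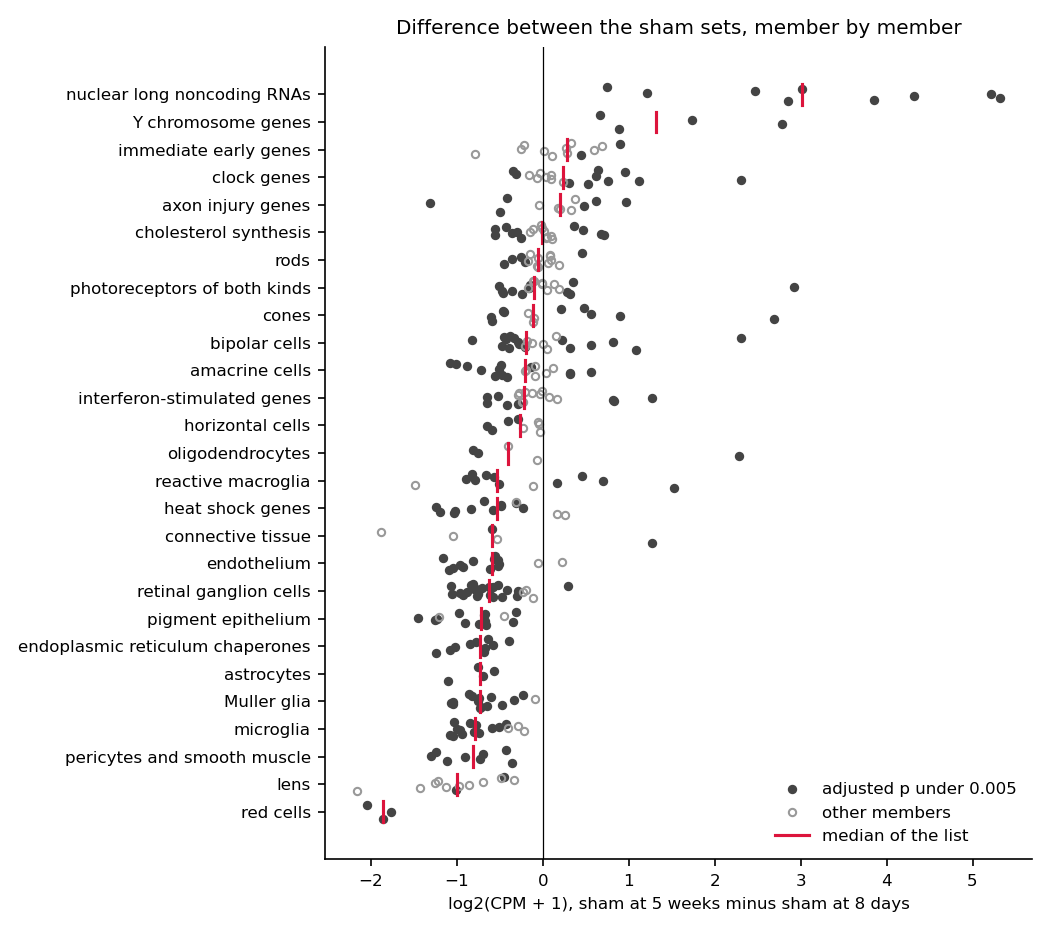
Log2 difference of each list member between the sham sets, 5 weeks minus 8 days (filled, adjusted p under 0.005; open, other members; red bars, list medians; lists ordered by median). Photoreceptor, bipolar and amacrine members lie on both sides of 0, most RGC, glial, vascular and pigment members lie below 0, and the nuclear long noncoding RNAs lie above 0.

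Lists of cell state were fixed beside those of cell type. Heat shock genes were lower in 11 and higher in 0 of 14 (median -0.54), against 28.1% lower and 38.3% higher over all genes. Hspa8, the constitutive chaperone, was at 1320.2, 1629 and 2047 CPM and at 724, 751 and 1059.7 CPM (-1.04 ± 0.10, adjusted p = 2.99e-08), and the inducible Hspa1a (0.26) and Hspa1b (0.16), near-identical copies, did not pass. Hspa5, the main chaperone of the endoplasmic reticulum, was at 374, 484 and 636 CPM and at 165, 203 and 246 CPM (-1.25 ± 0.11, adjusted p = 4.12e-09). A list of 10 such chaperones, chosen after values were seen, was lower in all 10 (median -0.73), with Calr by 1.08, Pdia3 by 1.02 and P4hb by 0.77 on the log2 scale.

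Of 17 clock genes 8 were higher, 2 lower and 7 not called (median 0.23), and 38.3% of all genes were higher. Per3, a repressor in the clock loop, was at 25.3, 32.3 and 41.3 CPM and at 151, 158 and 175 CPM (2.30 ± 0.08, adjusted p = 1.94e-14), and Per2 at 18.0, 21.7 and 27.0 CPM and at 42.2, 49.6 and 53.8 CPM (1.12 ± 0.08, adjusted p = 7.04e-10). Nr1d1, which represses the activator Arntl, did not pass (0.03 ± 0.05, adjusted p = 0.571). Dbp, a direct target of the clock, differed by -0.16 and did not pass either. The hour of collection is not given in the sources used here.

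Lists of injury and defence moved both ways in these uninjured retinas, beside 38.3% of all genes called higher and 28.1% called lower. Of 12 reactive macroglia genes 4 were higher and 6 lower (median -0.53). Edn2, endothelin 2, made by photoreceptors in damaged retina, was at 0.42, 0.585 and 0.913 CPM and at 2.53, 3.82 and 4.95 CPM (1.53 ± 0.14, adjusted p = 8.12e-09). Of 18 interferon-stimulated genes 3 were higher, Stat2 (1.27), Irf7 (0.83) and Irf9 (0.82), and 5 lower (median -0.22). Of 11 axon injury genes 3 were higher and 3 lower (median 0.20), with Trib3 up by 0.97, Chac1 lower by 1.31 on the log2 scale, and Ddit3, the stress factor CHOP, at -0.05 and not called. Cholesterol synthesis genes had a median of -0.01, with 4 higher, such as Lss (0.68), and 6 lower, such as Fdft1 (-0.56), of 19.

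In the connective tissue list, members went in opposite directions. Col1a1, a chain of type I collagen, rose from 0.21, 1.11 and 2.33 CPM to 3.36, 4.11 and 5.00 CPM (1.27 ± 0.20, adjusted p = 9.65e-06), while its partner Col1a2 differed by -0.53 and did not pass. Among the myelin genes, Cnp (-0.75) and Mal (-0.81) were lower. The calls of Col1a1 and Mal were lost when all 24 retinas shared the estimate of the spread (adjusted p = 0.0131 and 0.0218).

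The largest differences lay in long noncoding RNAs and in a few coding genes, all higher at 5 weeks. Snhg11, a noncoding host of small nucleolar RNAs, was at 9.80, 12.1 and 17.4 CPM at 8 days and 1147, 1303 and 1349 CPM at 5 weeks (chr2:158375638-158386145, 6.57 ± 0.10, adjusted p = 1.85e-19). Mir124a-1hg, the host transcript of a neuronal microRNA, was at 26.2, 40.0 and 63.0 CPM and at 1559.6, 1790.3 and 1905 CPM (5.42 ± 0.14, adjusted p = 1.58e-16). Meg3, an imprinted noncoding RNA, was at 21.1, 28.0 and 38.8 CPM and at 1094, 1143 and 1253 CPM (5.32 ± 0.11, adjusted p = 7.39e-18). The lowest 5-week retina lay far above the highest 8-day retina in each. The other genes of the first 8 were Firre (5.21), a noncoding RNA of the X chromosome, Col6a1 (5.2), Leng8 (5.14), Amy1 (5.13) and Col27a1 (4.93).

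A list of 10 long noncoding RNAs that are known to stay in the nucleus was chosen after values were seen. Its direction is therefore no independent result. All 9 shared genes were higher at 5 weeks, 8 of them by more than 2-fold, with a median of 3.02. Over all genes 38.3% were called higher, and 11% by more than 2-fold. Malat1, an abundant RNA of nuclear speckles, was at 47.8, 62.0 and 92.4 CPM and at 445, 459 and 479 CPM (2.85 ± 0.10, adjusted p = 1.83e-14). Neat1, the scaffold of paraspeckles, was at 1.35, 2.31 and 3.03 CPM and at 39.0, 43.5 and 56.2 CPM (3.86 ± 0.12, adjusted p = 1.38e-15). Reads of overlapping and antisense genes cannot be told apart here, because the strand setting of the counting is not given in the sources used here.

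The same contrast ran through the classes of the annotation. Of 231 intergenic long noncoding RNAs 144 were higher and 9 lower (median 0.53), of 177 antisense genes 120 and 5 (median 0.65) and of 146 processed transcripts 105 and 7 (median 0.80). Processed pseudogenes went the other way, 21 higher and 390 lower of 603 (median -0.54), and protein-coding genes were close to the whole (4982 higher and 3619 lower of 13030, median 0.06). The genes in 1 table only followed the same lines. Of 467 genes listed at 8 days alone, 200 were processed pseudogenes, and of 1465 listed at 5 weeks alone, 238 were antisense genes and 205 intergenic noncoding RNAs.

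Among protein-coding genes the difference also went with exon length. The fifth of genes with the least exon sequence in total (255 to 2683 bases) had a median difference of -0.16, and the next ones 0.03, 0.11, 0.17 and 0.16. Gene families added after values were seen also moved as groups. Of 79 ribosomal protein genes 75 were lower and 0 higher (median -0.71), and their share of TPM went from 4.31 ± 0.428% to 2.84 ± 0.0761%. Of 90 nuclear genes of oxidative phosphorylation 73 were lower and 4 higher (median -0.50). Of 316 Zfp genes, a class of zinc finger factors, 220 were higher and 10 lower (median 0.47). Reads of ribosomal protein genes may be shared with their processed pseudogenes. Lists that were lower at 5 weeks were thus measured in a transcriptome in which gene class and exon length moved too, and the part of each in the lists was not tested.

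The genes of the Y chromosome, which check that all mice were male, were present in every sham retina and higher at 5 weeks in 4 of 4 (median 1.31). Eif2s3y, a Y-linked subunit of a translation factor, was at 11.9, 15 and 16.8 CPM and at 86.5, 113 and 125 CPM (2.79 ± 0.09, adjusted p = 2.08e-15), and Ddx3y, an RNA helicase, at 39.1, 49.2 and 59.5 CPM and at 81.3, 89.3 and 98.9 CPM (0.89 ± 0.08, adjusted p = 6.55e-09). Their X-linked copies are similar in sequence, so the split of reads is uncertain.

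Few called genes fell by more than 2-fold. Map1a, a microtubule-binding protein of neurons, was at 310.4, 332 and 377 CPM and at 106, 118 and 129 CPM (-1.52 ± 0.05, adjusted p = 1.33e-14), and Dio2, the enzyme that activates thyroid hormone, at 34.5, 61.7 and 82.3 CPM and at 15.6, 18.1 and 57.5 CPM (-1.41 ± 0.25, adjusted p = 4.83e-05). Dio2 overlapped between the sets through the 5-week replicate 3. The other lower genes of the first 8 were Hbb-bs, Hba-a1, Pmel (-1.45) and the short or unnamed gene models Gm23935 (-1.83), Gm15564 (-1.53) and Mir6236 (-1.43).

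The set difference was measured again in the bTBI retinas, which share no animal with the sham retinas but share the kits, the tables and the times. There 9448 genes passed (65.4%), 5466 higher (37.8%) and 3982 lower (27.5%) at 5 weeks, and 2079 by more than 2-fold (14.4%), 1613 higher (11.2%) and 466 lower (3.22%). Across genes the differences correlated with those of the sham retinas (r = 0.967 over 14455 genes, which are not independent replicates). Of the genes called in sham, 9555 (99.6%) had the same sign in bTBI, against 93.6% of all genes, and 8589 were also called (89.5%). All 1754 genes called in sham at above 2-fold (12.1%) had the same sign. The list medians were close for RGC (-0.62 in sham, -0.61 in bTBI), Müller glia (-0.73 and -0.68) and rods (-0.05 and -0.02). They lay further apart for bipolar cells (-0.19 and 0.00), microglia (-0.79 and -1.78), lens (-1.0 and -2.93) and interferon-stimulated genes (-0.22 and -1.10). The same held for connective tissue (-0.58 and -1.80), oligodendrocytes (-0.40 and -1.29), reactive macroglia (-0.53 and -1.15) and astrocytes (-0.73 and -1.26). The median of the axon injury list changed sign (0.20 and -0.53). The bTBI sets also differ in the time since injury. Only 16 genes passed the test of the difference between the set differences. Among them was Gbp2, an interferon-induced GTPase, with -0.65 in sham and -2.25 in bTBI (adjusted p = 0.000475).

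**Figure D5:**
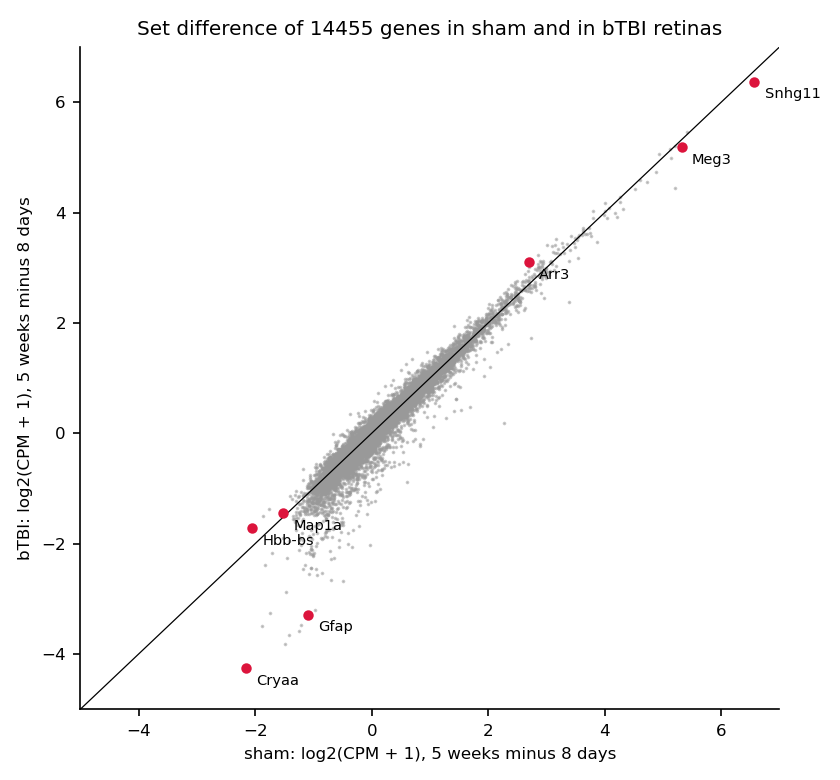
Log2(CPM + 1) difference, 5 weeks minus 8 days, of 14455 genes in the sham retinas (horizontal axis) and in the bTBI retinas (vertical axis), with the line of equality and 7 named genes in red. Most genes lie along the line (r = 0.967), with Snhg11 and Meg3 high in both, and Gfap and Cryaa below the line.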

How the data were processed

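RNA sequencing covered 24 mouse retinas in 4 groups of 6, of which the 12 sham retinas are described. Per the labels and the study's methods, RNA was DNase-treated, poly(A) RNA was selected with oligo(dT), and stranded TruSeq libraries were sequenced as pairs of 75-base reads on an Illumina HiSeq instrument. The submitters' processing notes name STAR, edgeR and mm10, and the methods name featureCounts for counting reads per gene. The deposited signal values are counts per gene, normalised by the authors to the effective size of each library on a scale like CPM, with 1 table per time and with weakly expressed genes left out. Every value of a library is a multiple of 1 step (to within 0.01 of it), and depth was estimated as the total over that step, with no total from the authors to set it against. The tables hold gene identifiers, of which 16367 of 16387 were matched to symbols in the GENCODE annotation.

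Each retina was rescaled to a sum of 1000000 over the 14455 genes in both tables (CPM). TPM was computed with the exon length of each gene in GENCODE M21 (GRCm38), which 13 shared genes lack. Sets were compared in R 4.3.3 by limma 3.58.1 on log2(CPM + 1), with a mean-dependent prior (trend) and Benjamini-Hochberg adjustment over all genes. All adjusted p-values come from limma, two-sided, and genes were called under 0.005. Differences are on the log2(CPM + 1) scale, which understates the change of low genes. On simulated data with 200 of 14455 genes changed, 76% of genes changed by 0.5 on the log2 scale were called. Of those changed by 1, 94% were called, and there was 1 false call. Between the sham sets 9594 of 14455 genes were called (66.4%). Recovery and false calls with that many genes changed were not tested. Shares and SDs were described with no test. Tables and figures were made with Python 3.11.15 and pandas 2.3.3.

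The members and gene lists were chosen with earlier results of these data known. Named were the 10 genes of highest TPM, the 2 highest and up to 3 called members of smallest p of each list, the 8 largest called differences each way and the 8 largest SDs of each set with a mean log2 level of at least 3. Other list members, such as those that went against their list or lost a call, were named after their values were seen. Mitochondrially encoded genes were not analysed here, and a few genes are not reported here. No columns of the 2 sham sets held identical values. Replicate numbers name separate mice and do not pair them.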

Additional observations from a re-analysis of the deposited data

Results flagged for a closer look

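Values were flagged where the highest or lowest of 6 retinas lay far from the others by Dixon's test. The test was applied to 60 list means and 250 sets of gene values, and chance alone flags about 1 in 20. Some of the genes were named for a large SD between these retinas, so that rate does not hold for the gene values. Flagged were 18 sets of gene values and 4 list means, the latter given as mean log2(CPM + 1). The rods stood at 11 in the 5-week replicate 3 (others 11.1). The RGC genes stood at 5.97 in the 8-day replicate 1 (others 5.68 to 5.79), and the astrocyte genes at 3.95 in the 8-day replicate 6 (others 4.28 to 4.43). The heat shock genes stood at 6.79 in the 5-week replicate 3 (others 6.36 to 6.42).

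The 5-week replicate 3 was flagged most often among the genes. It was high in Hspa8 (1059.7 CPM), Hsp90aa1 (1777 CPM), Hspa1a (32.5 CPM), Hspa1b (44.4 CPM) and Dio2 (57.5 CPM), and low in Amy1 (184 CPM), Firre (258 CPM) and Snhg11 (1147 CPM). In the 5-week replicate 2, Myh11 (6.89 CPM) and Pmel (43.6 CPM) were high and Mir6236 (36.3 CPM) was low, and Calr was low in replicate 4 (232 CPM).

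At 8 days, replicate 1 was high in Gm15564 (85.4 CPM) and Mir6236 (221 CPM) and low in Gnb1 (6207 CPM). Replicate 4 was high in Penk (168 CPM) and low in Trib3 (3.23 CPM), and replicate 6 was low in Calb1 (84.3 CPM). Gbp2 was flagged because its set difference was not alike in sham and bTBI retinas, with -0.65 and -2.25 and a difference of -1.60 between them (limma adjusted p = 0.000475).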

How the results depend on the processing

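The number of genes called (9594) was 9795 with median-of-ratios scaling, 9851 with TMM, 9629 with the values scaled as deposited, 9577 with a pseudocount of 0.1, 9594 with at least 1 CPM in 6 of 12 retinas, 9571 with 24 retinas in the fit, 9437 without the trend, 11178 at an adjusted p of 0.05, and 9160 to 9640 without each retina in turn. The share of called genes that were higher at 5 weeks was 57.7%, 50.5% with median-of-ratios scaling and 48.9% with TMM. Chosen after seeing the data, leaving out 8-day replicates 4 and 5 gave 8982 genes and leaving out 5-week replicates 3 and 6 gave 8878.

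With the replicate number as a block 9293 genes were called, 5384 higher and 3909 lower. The numbers do not pair the mice, since same-numbered retinas had correlations of -0.153 to 0.191 and 2 of 6 correlated best with their own number. Under the block Cryaa and Cryba1 passed (adjusted p = 0.000214 and 0.0012).

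As shares of reads with no correction for length, rod genes held 9.93 and 8.88% (8 days and 5 weeks), RGC genes 0.268 and 0.164% and Müller genes 1.11 and 0.637%, because the correction divides by exon length. Of 160 named genes, 15 lost and 12 gained a call under some alternative and 0 reversed. The planned edgeR and DESeq2 tests, which need whole reads, and shares without mitochondrially encoded genes were not run. Depth limits the low genes most, and the confounding of time, kit and table limits all differences between the sets.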
